A study of Homo sapiens with 32 samples.

Results

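The replication-dependent histone genes are the clustered genes for the core histones H2A, H2B, H3 and H4 and for the linker histone H1 that are expressed during DNA synthesis. They were taken by name from the 3 count tables: every row named H2AC, H2BC, H3C or H4C followed by a number, and the rows H1-1 to H1-5. This gave 68 genes of 62703 identifiers, of which 5 encode H1, 17 H2A, 18 H2B, 13 H3 and 15 H4. The study measured RNA by sequencing in HEK293T, a widely used cell line from human embryonic kidney, in which IGF2BP1, IGF2BP2 or IGF2BP3, a family of RNA-binding proteins, had been knocked out with CRISPR/Cas9. Total, nuclear and cytoplasmic RNA were each sequenced, 32 libraries in all. Every group was untreated. The control carried Cas9 with a guide RNA that targets no mammalian gene, and it has 4 libraries for each kind of RNA, 1 in each of batches 1 to 4. The IGF2BP1 knockout has 2 libraries for each kind (batches 1 and 2), as does the IGF2BP2 knockout (batches 3 and 4). The IGF2BP3 knockout has 2 libraries each of total and nuclear RNA (batches 3 and 4) and 4 of cytoplasmic RNA, of which 2 belong to batch 5, a batch with no control. Each knockout is 1 clone grown from a single sorted cell, so that a difference between a knockout and the control cannot be told apart from a difference between clones. Nothing in the labels says that libraries of a group came from separate cultures, so p-values measure only the spread between these libraries.

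Replication-dependent histone mRNAs are unusual among messenger RNAs of animals in that they end in a conserved stem-loop in place of a poly(A) tail. The stem-loop is bound by the protein SLBP, the pre-mRNA is cut after it with the help of the U7 small nuclear RNA, and the mRNA is destroyed rapidly when DNA synthesis stops. Histone transcripts that run past the stem-loop to a downstream polyadenylation site are also known, chiefly in cells that differentiate. The libraries were made with poly(A) selection, per the labels' protocols, so the values below are of histone RNA that this selection let through, and the share of all histone mRNA that this represents was not measured.

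The stem-loops are shown because they are the feature that sets these mRNAs apart, and because the annotation places some of them far inside the transcript. A stem-loop of 6 paired bases and a loop of 4 was found in an annotated GENCODE 29 transcript (GRCh38) of 27 members. Of these, 21 have a transcript that goes on for more than 100 bases past it, and in 6 the transcripts in which it was found end within 100 bases. Transcripts in which it was not found were left out of this count. H2BC5, among the 6, has 2 annotated transcripts, the longest of 789 bases, and the element was placed in the one of 496 bases. For 37 members no stem-loop was found in an annotated transcript, and 4 members have no entry in that annotation. Several of the 37 have only a short transcript, of 381 bases in H2BC12, 642 in H1-2 and 312 in H4C4. A stem-loop past the annotated end could not be found, so these 37 are not shown to lack one. H1-2 and H2BC12, among the most counted members, have no window to show. The windows of 5 other members described below follow, 5′ to 3′, with the stem-loop in capitals and 5 bases on each side.
H2AC25: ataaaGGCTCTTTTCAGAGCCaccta
H2BC21: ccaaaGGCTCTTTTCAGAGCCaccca
H2BC5: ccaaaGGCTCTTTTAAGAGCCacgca
H3C10: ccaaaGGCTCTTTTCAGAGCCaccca
H4C8: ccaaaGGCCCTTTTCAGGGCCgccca
The annotated transcript with this element goes on for 390 bases past it in H2AC25, 1729 in H2BC21, 769 in H3C10 and 1655 in H4C8, but for only 39 in H2BC5. Variants of the stem-loop followed the histone class. The H4 members with a stem-loop have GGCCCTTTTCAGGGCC (5 members) or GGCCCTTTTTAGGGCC (3), and those of classes H2A, H2B and H3 have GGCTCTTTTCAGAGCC (15) or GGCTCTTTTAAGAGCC (4).

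Most members lie in clusters. On GRCh38, 52 are on chromosome 6, 31 of them between 25726132 and 26285638 and 21 between 27125897 and 27893843, 11 are on chromosome 1, 1 (H4C16) is on chromosome 12, and 4 are not placed by the annotation. The promoters of 3 members that rose in the knockouts are printed below to show the elements that members of a class share. Each is the 250 bases before the first listed transcription start in RefSeq (GRCh38.p14), on the gene's strand, with motif matches on both strands in capitals.
H1-2 (chr6:26056471-26056720, minus strand): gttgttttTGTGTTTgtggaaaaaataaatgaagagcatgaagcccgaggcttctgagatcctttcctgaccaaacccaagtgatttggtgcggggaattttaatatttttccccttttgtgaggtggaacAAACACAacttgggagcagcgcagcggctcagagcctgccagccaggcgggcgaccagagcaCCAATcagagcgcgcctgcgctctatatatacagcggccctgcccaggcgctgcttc
H2BC12 (chr6:27146859-27147108, minus strand): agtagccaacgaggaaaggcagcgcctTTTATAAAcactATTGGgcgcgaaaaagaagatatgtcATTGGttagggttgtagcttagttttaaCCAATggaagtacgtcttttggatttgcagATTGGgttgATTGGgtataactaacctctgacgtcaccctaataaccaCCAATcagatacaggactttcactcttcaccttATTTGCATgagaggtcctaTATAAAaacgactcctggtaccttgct
H2BC21 (chr1:149886683-149886932, minus strand): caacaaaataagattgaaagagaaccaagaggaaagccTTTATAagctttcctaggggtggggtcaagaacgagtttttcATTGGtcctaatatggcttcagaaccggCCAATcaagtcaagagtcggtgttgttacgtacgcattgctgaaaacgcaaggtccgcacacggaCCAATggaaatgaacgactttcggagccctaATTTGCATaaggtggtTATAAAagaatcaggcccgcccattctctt
Of the 68 members, 63 have a promoter in this table. The octamer ATTTGCAT was found in 14 of 18 H2B and 11 of 16 H2A promoters, against 1.63% of all 35116 promoters. The H1 box core AAACACA was found in 5 of 5 H1 promoters and in no other member, against 4.82% of all. The CCAAT box CCAAT was found in 53 of 63 members (32.0% of all), with 3 of the 13 H4 promoters among them, and the TATA box core TATAAA in 43 of 63 (10.7% of all). These are matches of letters and not evidence of binding.

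Libraries held between 13689067 and 26119480 counts. A value is given in CPM, the gene's count divided by the library's total and scaled to the same total for every library, and it compares libraries for a gene, not genes with each other. The targeted genes were lower in their own knockout: in total RNA IGF2BP1 fell by 4.23 (log2), IGF2BP2 by 1.31 and IGF2BP3 by 1.19, each with adjusted p at or below 2.73e-06 (edgeR quasi-likelihood test). Of 6 markers of this line, all were counted in every group, with a summed level of 962 to 996 CPM in total RNA of the control and 569 to 573 CPM in the IGF2BP3 knockout. The 4 RNAs chosen as nuclear, among them MALAT1, summed to 262 to 372 CPM in nuclear and 128 to 151 CPM in cytoplasmic RNA of the control. In the IGF2BP2 knockout they summed to 511 to 559 CPM in nuclear and to more, 636 to 663 CPM, in cytoplasmic RNA, and in cytoplasmic RNA of the IGF2BP3 knockout to 273 to 785 CPM. Set against cytoplasmic RNA, the nuclear libraries were thus enriched in these RNAs in the control but not in the IGF2BP2 knockout. The part of these RNAs in the ratios between compartments was not tested. The 4 RNAs chosen as cytoplasmic summed to 8507 to 9698 CPM in nuclear and 11570 to 12740 CPM in cytoplasmic RNA of the control. For the IGF2BP2 knockout these sums were 8427 to 8619 CPM and 9819 to 9905 CPM. In total RNA the RNAs chosen as nuclear summed to 249 to 305 CPM in the control, a range that overlapped its nuclear RNA. In total RNA of the IGF2BP3 knockout they summed to 1167 to 1424 CPM, and their part in the histone results was not tested. Among markers of blood, liver and connective tissue cells, HBB had no count and PTPRC, CD3E, ALB and COL1A2 had at most 3 reads in any total RNA library of the control or the IGF2BP3 knockout, while COL1A1 was at a mean of 30.6 CPM in the former and 69.5 CPM in the latter; their part in the histone results was not tested. Fewer cells of a type and less RNA per cell cannot be told apart in such bulk samples. Total RNA replicate 2 and nuclear RNA replicate 1 of the IGF2BP1 knockout hold the same 21232940 counts, with no identifier different, so 1 library stands in both groups. For the IGF2BP1 knockout the counts of members called, most members described in total RNA, and the lists are given below with and without it; the class ratios are given per library. Histone coding sequences are near-identical within a class, and how reads that match several of them were counted is not given in the sources used here, so the split of reads among members of a class is uncertain.

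Many members were barely counted. Of the 68, 6 had no count in any library (H2BC1, H2BC10, H3C4, H3C14, H3C15 and H4C13). H3C14 and H3C15 have annotated transcripts of identical sequence, and how reads that match both were counted is not given in the sources used here. Another 23 were counted but never above 12 reads in a library and passed no filter. A further 7 passed the filter on low counts in 1 or 2 kinds of RNA, and 32 passed it in all 3. H1-2, H2AC25 and H2BC12 together held 48.8% to 67.0% of all member reads, depending on the library. A member can pass this filter through the group in which it is high, so counts over the tested members lean towards genes with a difference, and the summed level of all 68, which needs no filter, is given first.

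The 68 genes together were higher in every knockout library than in every control library, in each kind of RNA. In total RNA their summed level was 137, 136, 103 and 115 CPM in the 4 control libraries, 186 and 195 CPM in the IGF2BP1 knockout, 214 and 218 CPM in the IGF2BP2 knockout, and 335 and 342 CPM in the IGF2BP3 knockout. The 4 groups do not overlap, and the 3 knockouts stand in the order of their numbers. Set against the control library of its batch, the sum was 1.36 and 1.439 times higher in the IGF2BP1 knockout. For knockout of IGF2BP2 the ratios were 2.09 and 1.90, and IGF2BP3 reached 3.27 and 2.98.

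The classes did not rise by the same amount. In total RNA of the IGF2BP3 knockout the same-batch ratios were 5.04 and 4.12 for the summed H1 genes, 4.42 and 4.45 for H3, 3.52 and 3.34 for H2B, 2.25 and 2.10 for H4, and 2.17 and 1.86 for H2A. The H1 sum is nearly all H1-2. In the IGF2BP1 knockout H1 was at 1.68 and 2.41 times its control and H2A at 0.841 and 1.06 times. The H2A sum is largely H2AC25, which is described by itself below. Differences between classes were not tested.

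In nuclear RNA the control libraries were at 118, 109, 128 and 133 CPM, and the IGF2BP1, IGF2BP2 and IGF2BP3 knockouts at 195 and 195, 273 and 288, and 446 and 405 CPM. In cytoplasmic RNA the control was at 109, 107, 121 and 126 CPM, the IGF2BP1 knockout at 185 and 184 CPM, and the IGF2BP2 knockout at 278 and 276 CPM. The IGF2BP3 knockout was at 460 and 445 CPM in batches 3 and 4 and at 222 and 211 CPM in batch 5. The order of the groups was the same in the 2 compartments as in total RNA, except that the batch 5 libraries lay below the IGF2BP2 knockout. Leaving out H1-2, H2AC25 and H2BC12, the sum of the other 65 genes in total RNA was still higher in each knockout library than in the control of its batch. For knockout of IGF2BP1 the ratios were 1.52 and 1.40, for IGF2BP2 they were 2.66 and 2.29, and IGF2BP3 reached 4.08 and 3.61.

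**Figure D1:**
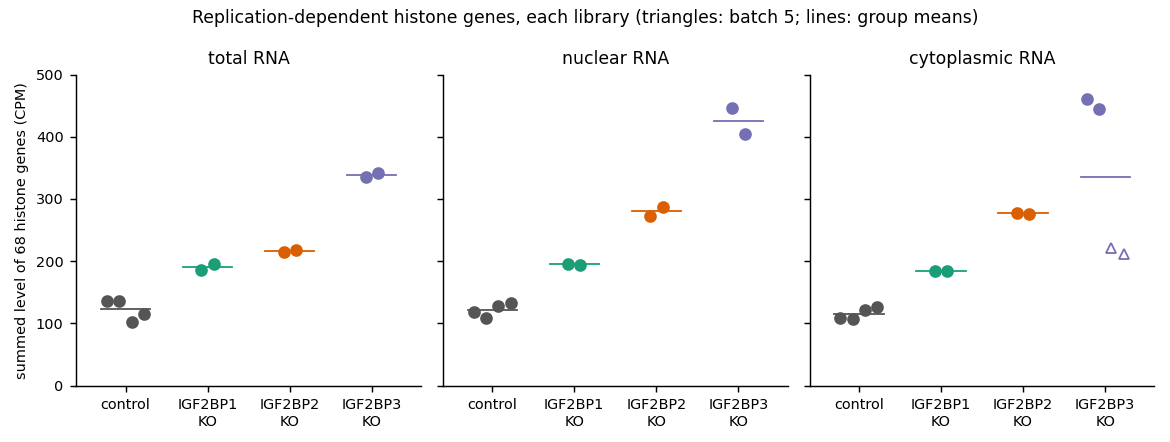
Summed level of the 68 genes in CPM (vertical axis, from 0) in each library, by genotype (horizontal axis) and kind of RNA (panels); points are libraries, lines group means, and open triangles the 2 libraries of batch 5. In total RNA the control lies between 103 and 137 CPM and the IGF2BP3 knockout at 335 and 342 CPM; in cytoplasmic RNA the batch 5 libraries lie at 222 and 211 CPM, between the control and batches 3 and 4.

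Gene by gene, the IGF2BP3 knockout had the most members called in total and nuclear RNA, and as many as the IGF2BP2 knockout in cytoplasmic RNA. Called means an adjusted p below 0.05 in edgeR's quasi-likelihood test with Benjamini-Hochberg adjustment over all genes tested. In total RNA of the IGF2BP3 knockout 24 of 35 tested members rose and none fell, where 23.5% of all 18745 genes tested rose and 23.4% fell. In nuclear RNA 22 of 34 rose and none fell, against 25.1% and 25.3% of all genes. In cytoplasmic RNA 27 of 36 rose and none fell, against 31.5% and 33.2% of all genes. The median log2 fold change of the tested members was 1.42, 1.47 and 1.65 in the 3 kinds of RNA, where that of all genes was 0.02, 0.01 and 0.02.

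The IGF2BP2 knockout had 20 of 35 members called higher in total RNA, 18 of 34 in nuclear and 27 of 36 in cytoplasmic RNA, and none called lower. The share of all genes called higher was 23.3%, 24.8% and 30.9%, and lower 23.7%, 24.9% and 33.2%. The members' median log2 fold changes were 1.09, 1.00 and 1.33. Without replicate 2 of this knockout, 13 members were called higher in total RNA.

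In the IGF2BP1 knockout 10 of 35 members rose in total RNA, 13 of 34 in nuclear RNA and 16 of 36 in cytoplasmic RNA. The share of all genes called higher was 10.7%, 12.7% and 22.5%. None fell in total or nuclear RNA, and 1, H2AC25, fell in cytoplasmic RNA, against 13.5%, 13.0% and 21.9% of all genes. Without the library that stands in both groups, 7 members rose and 1 fell in total RNA, and 14 rose and none fell in nuclear RNA; the lone remaining library is then assumed to vary like the others. DESeq2 called 4 members higher in total RNA, 8 in nuclear and 9 in cytoplasmic RNA. With no term for batch, 7 rose and none fell in cytoplasmic RNA.

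The better counted members account for most calls. Of 22 tested members with a mean of 1 CPM or more over all total RNA libraries, 8 rose in the IGF2BP1, 17 in the IGF2BP2 and 19 in the IGF2BP3 knockout. Of the 13 under 1 CPM, 2, 3 and 5 rose. Of all genes tested in total RNA 10.7%, 23.3% and 23.5% rose, and the first 2 counts under 1 CPM lie near these shares. Of the 32 members tested in all 3 kinds of RNA, 6 rose in all 3 in the IGF2BP1, 15 in the IGF2BP2 and 21 in the IGF2BP3 knockout. Of the 17587 genes tested in all 3 kinds, 4.22%, 15.8% and 17.1% did so. The count of the IGF2BP1 knockout uses 1 library in both total and nuclear RNA; it was 5 with that library left out of total RNA, 7 with it left out of nuclear RNA and 6 with it left out of both. H1-2, H2BC11, H2BC12 and H3C10 were called higher in all 9 comparisons, as were 1.64% of all genes tested. The 9 comparisons share control libraries, and those of H3C10 include calls of the IGF2BP1 knockout that were lost under several settings, as given below. H2BC11 was named for that count after its values were seen. By annotation, 21 members have a transcript that goes on past the stem-loop, and 16 of them were tested in at least 1 kind of RNA. In cytoplasmic RNA of the IGF2BP1, IGF2BP2 and IGF2BP3 knockouts 8, 14 and 15 of the 21 rose. Of all genes tested there, 22.5%, 30.9% and 31.5% rose. Among the 37 with no stem-loop found in an annotated transcript, 18 were so tested, and 6, 9 and 9 rose. Among the 6 in which the transcript with the stem-loop ends near it, 4 were so tested, and 2, 3 and 2 rose. These classes describe the annotation, which can stop before the stem-loop, and not a known trait of the genes. Over all 21 members of the first of these annotation classes, tested or not, the median was 744 reads over all libraries. Over all 37 members of the second it was 102. The part of depth in these counts was not tested.

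**Figure D2:**
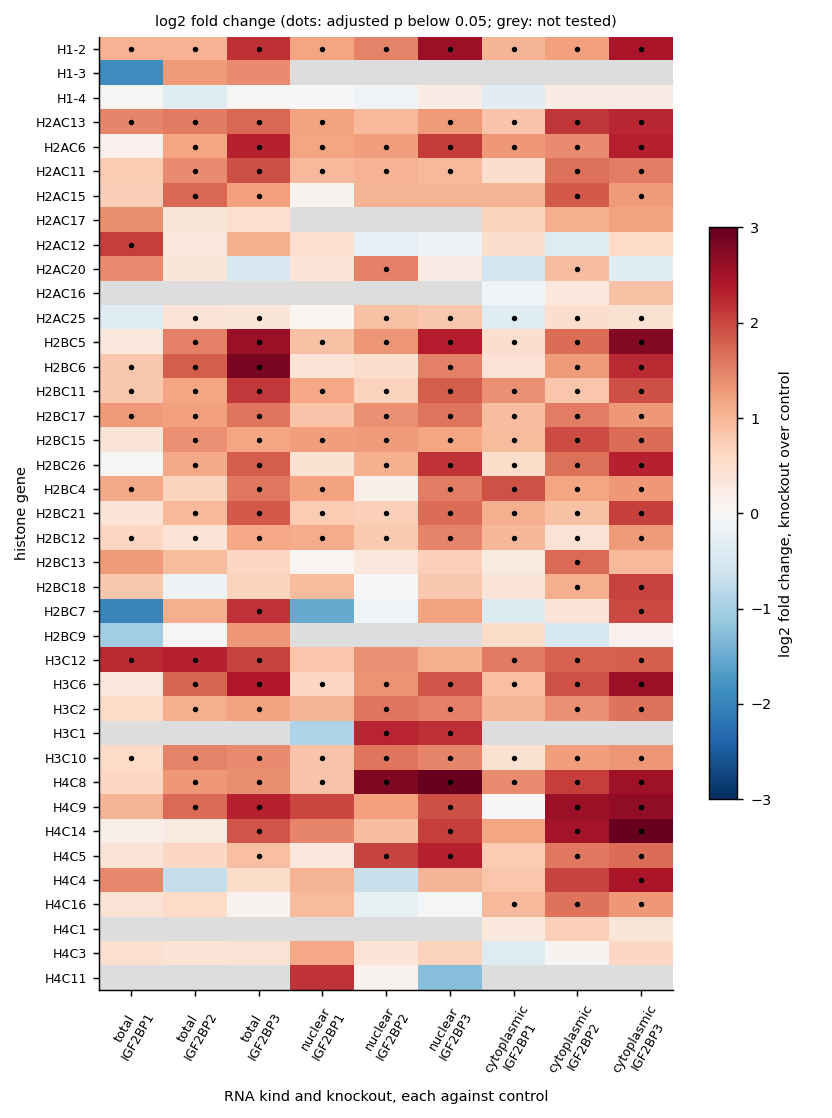
log2 fold change over control (colour, blue lower and red higher) of the 39 members tested in at least 1 kind of RNA (rows, by class) in the 9 comparisons (columns); dots mark adjusted p below 0.05 and grey cells genes that did not pass the filter. Most cells are red, the IGF2BP3 columns have 24, 22 and 27 members called higher, and H1-4 has no dot.

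Linker histone H1 binds the DNA between nucleosomes. H1-2 was at 13.7, 14.7, 11.1 and 13.6 CPM in total RNA of the control, 25.6 and 36.8 CPM in the IGF2BP1 knockout, 27.8 and 30.1 CPM in the IGF2BP2 knockout, and 64.2 and 67.2 CPM in the IGF2BP3 knockout. Each knockout library lay above each control library, and the IGF2BP3 libraries stood apart from all others. The log2 fold changes were 1.05 ± 0.13 (SE), 1.05 ± 0.13 and 2.20 ± 0.13, with adjusted p of 9.19e-05, 3.45e-05 and 8.96e-08. H1-2 also rose by 2.56 ± 0.11 in nuclear and 2.45 ± 0.07 in cytoplasmic RNA of the IGF2BP3 knockout. In cytoplasmic RNA of the IGF2BP1 knockout it rose by 1.01 ± 0.08, with an adjusted p of 8.64e-13, and with no batch term the adjusted p was 0.0782. Without the library that stands in both groups H1-2 rose in the IGF2BP1 knockout by 0.83 ± 0.13 in total and 1.27 ± 0.14 in nuclear RNA.

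H1-4, another H1 subtype, was called in none of the 9 comparisons. It was at 2.90, 1.15, 2.20 and 3.55 CPM in total RNA of the control and 3.00 and 3.73 CPM in the IGF2BP3 knockout, and the groups overlapped. Its log2 fold change in that comparison was 0.03 ± 0.24 with a 95% interval of -0.43 to 0.50. H1-3 was tested in total RNA alone and was not called, and H1-1 and H1-5 did not pass the filter.

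Histones H2A and H2B form the dimer on each face of the nucleosome core. H2AC6 was at 5.81, 5.26, 3.14 and 3.72 CPM in total RNA of the control, 6.9998 and 5.56 CPM in the IGF2BP1 knockout, 8.53 and 9.17 CPM in the IGF2BP2 knockout, and 20.4 and 19.0 CPM in the IGF2BP3 knockout. The IGF2BP1 libraries overlapped the control and the others lay above it. The log2 fold change was 0.12 ± 0.15, 1.19 ± 0.16 and 2.31 ± 0.15, with adjusted p of 0.602, 6.35e-05 and 1.71e-07, and without the shared library the first was 0.20 ± 0.20 (adjusted p 0.514). In cytoplasmic RNA H2AC6 rose in all 3 knockouts, by 1.31 ± 0.14, 1.41 ± 0.13 and 2.33 ± 0.12.

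H2AC25 did not rise in the IGF2BP1 knockout. It was at 38.2, 37.5, 26.9 and 30.001 CPM in total RNA of the control, 25.9 and 36.0 CPM in the IGF2BP1 knockout, 42.7 and 42.3 CPM in the IGF2BP2 knockout, and 43.7 and 41.1 CPM in the IGF2BP3 knockout. The IGF2BP1 libraries were below their same-batch controls, and the other knockouts were above all 4 control libraries by a small margin. Its log2 fold change was -0.36 ± 0.13 in the IGF2BP1 knockout, 0.40 ± 0.13 in the IGF2BP2 and 0.36 ± 0.13 in the IGF2BP3 knockout, with adjusted p of 0.0544, 0.0223 and 0.0330. Without the library that stands in both groups the first was -0.63 ± 0.11, with an adjusted p of 0.000104. DESeq2 gave an adjusted p of 0.0606 in the IGF2BP3 knockout. With no batch term the adjusted p was 0.367 in the IGF2BP2 and 0.472 in the IGF2BP3 knockout. Without control replicate 3 these were 0.285 and 0.336, and without control replicate 4, or without either library of the IGF2BP2 knockout or, for IGF2BP3, of the IGF2BP3 knockout, both calls were also lost.

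In cytoplasmic RNA H2AC25 was at 26.5, 28.1, 30.7 and 34.7 CPM in the control and at 23.1 and 21.7 CPM in the IGF2BP1 knockout, both below every control library. Its level fell by 0.36 (log2; SE 0.08), with an adjusted p of 0.000204, while 16 other members rose in the same libraries. Without control replicate 2 the adjusted p of this fall was 0.0503, without knockout replicate 2 it was 0.0514, and with no batch term it was 0.0954. In the IGF2BP2 and IGF2BP3 knockouts H2AC25 rose in cytoplasmic RNA by 0.53 ± 0.07 and 0.45 ± 0.07.

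Among the H2B genes, H2BC12 was at 35.5, 34.4, 23.4 and 23.9 CPM in total RNA of the control, 59.2 and 54.1 CPM in the IGF2BP1 knockout, 34.2 and 37.4 CPM in the IGF2BP2 knockout, and 59.0 and 63.5 CPM in the IGF2BP3 knockout. Control libraries of batches 1 and 2 were higher than those of batches 3 and 4, and the IGF2BP2 libraries lay at the level of the former. The log2 fold change was 0.64 ± 0.10, 0.41 ± 0.10 and 1.15 ± 0.10, and without the shared library the first was 0.67 ± 0.10 (adjusted p 5.79e-06). For this gene the IGF2BP2 knockout had the smallest of the 3 changes also in cytoplasmic RNA (0.99 ± 0.06, 0.43 ± 0.06 and 1.28 ± 0.06), so the order seen in the sum was not that of every member. The call of the IGF2BP2 knockout in total RNA (adjusted p 0.00482) was lost with no batch term, at 0.609, and without control replicate 4 (0.0989) or replicate 1 (0.0633) or 2 (0.11) of that knockout.

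H2BC21 was at 5.04, 4.53, 5.01 and 5.61 CPM in total RNA of the control, 7.25 and 6.03 CPM in the IGF2BP1 knockout, 12.1 and 11.7 CPM in the IGF2BP2 knockout, and 21.3 and 22.9 CPM in the IGF2BP3 knockout. The groups did not overlap. The log2 fold change was 0.41 ± 0.15 (adjusted p 0.0578), 0.98 ± 0.14 (9.14e-05) and 1.84 ± 0.13 (3.33e-07). Without the shared library the first was 0.46 ± 0.19 (adjusted p 0.0921), and with RLE size factors or upper quartile normalization its adjusted p was 0.0472 or 0.0341. H2BC5 was at 4.01, 4.43, 2.15 and 3.32 CPM in the control, 9.39 and 8.10 CPM in the IGF2BP2 knockout, and 19.6 and 18.4 CPM in the IGF2BP3 knockout. It rose by 1.51 ± 0.20 and 2.60 ± 0.18 in these, and in the IGF2BP1 knockout its value was 0.31 ± 0.19 (adjusted p 0.257), or 0.38 ± 0.24 (0.281) without the shared library. H2BC6 had the largest rise in total RNA among members called in all 3 kinds, 2.85 ± 0.26 in the IGF2BP3 knockout, from 1.20, 1.20, 0.608 and 0.802 CPM in the control to 5.99 and 5.67 CPM. In the IGF2BP1 knockout the largest rises called in all 3 kinds were of H2AC13 (1.47 ± 0.36 in total RNA) and H2BC4 (1.15 ± 0.31). Both rest on few reads, 8 to 18 in each control library and 28 to 34 in each knockout library. Without the library that stands in both groups the adjusted p for total RNA was 0.0375 for H2AC13 and 0.123 for H2BC4. Without control replicate 2 that of H2BC4 was 0.119, and with DESeq2 it was 0.102 in total and 0.105 in nuclear RNA. In nuclear RNA, without control replicate 2 or replicate 2 of the knockout, it was 0.492 and 0.508 for H2BC4 and 0.422 and 0.432 for H2AC13. The nuclear call of H2AC13 was also lost with DESeq2 (0.184), upper quartile normalization (0.054), no batch term (0.0914), batches 1 and 2 exchanged (0.0626) or either IGF2BP3 library left out (0.0708 and 0.0666). Its cytoplasmic call was lost with DESeq2 (0.182), with no batch term (0.0721), and without control replicate 2 (0.482) or knockout replicate 2 (0.496).

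Histones H3 and H4 form the tetramer at the centre of the nucleosome. H3C6 was at 5.38, 5.00, 3.14 and 3.09 CPM in total RNA of the control, 7.84 and 5.93 CPM in the IGF2BP1 knockout, 12.1 and 11.6 CPM in the IGF2BP2 knockout, and 18.8 and 19.4 CPM in the IGF2BP3 knockout. All knockout libraries lay above the control. The log2 fold change was 0.35 ± 0.15 (adjusted p 0.105), 1.74 ± 0.15 (2.22e-06) and 2.40 ± 0.15 (1.26e-07). The first was 0.48 ± 0.19 (adjusted p 0.0681) without the shared library, and its adjusted p was 0.0381 with no batch term. H3C10 was at 2.90, 3.12, 2.34 and 2.69 CPM in the control, 5.56 and 3.91 CPM in the IGF2BP1 knockout, 7.42 and 8.61 CPM in the IGF2BP2 knockout, and 7.94 and 7.66 CPM in the IGF2BP3 knockout. The last 2 knockouts overlapped for this gene, at 1.495 ± 0.19 and 1.42 ± 0.19. In the IGF2BP1 knockout its change of 0.59 ± 0.19 had an adjusted p of 0.0407, which was 0.429 without control replicate 1, 0.446 without knockout replicate 1 and 0.14 with DESeq2. It was also not called when any of control replicates 3 and 4 or the IGF2BP2 and IGF2BP3 knockout libraries was left out, at adjusted p of 0.0636 to 0.0806. Without the shared library it was 0.87 ± 0.24 (adjusted p 0.00774). In cytoplasmic RNA of the IGF2BP1 knockout H3C10 was called at 0.45 ± 0.18 (adjusted p 0.0419), and this call was lost with no filter (0.0515), with DESeq2 (0.14), with no batch term (0.666), and without control replicate 1 or knockout replicate 1 (0.663 each).

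H4C8 was at 1.20, 1.56, 1.45 and 1.83 CPM in total RNA of the control, 2.23 and 2.17 CPM in the IGF2BP1 knockout, 4.88 and 4.31 CPM in the IGF2BP2 knockout, and 4.82 and 5.12 CPM in the IGF2BP3 knockout. Its log2 fold change was 0.62 ± 0.25 (adjusted p 0.0889), 1.30 ± 0.22 (0.000384) and 1.39 ± 0.22 (0.000188), and the first was 0.83 ± 0.36 (0.0975) without the shared library. In nuclear RNA its values were 2.80 ± 0.33 and 3.05 ± 0.32 for the IGF2BP2 and IGF2BP3 knockouts, where the control held 9 to 31 reads. The test of its nuclear to cytoplasmic ratio called neither, at 0.69 ± 0.45 and 0.45 ± 0.44. H4C16, the member on chromosome 12, was at 0.939, 1.41, 1.40 and 1.37 CPM in total RNA of the control and 1.66 and 1.84 CPM in the IGF2BP3 knockout, with a change of 0.12 ± 0.30 that was not called. In cytoplasmic RNA H4C16 rose in all 3 knockouts, by 0.97 ± 0.38, 1.63 ± 0.34 and 1.30 ± 0.35, from 8 to 12 reads in each control library. The first of these was lost with DESeq2 (adjusted p 0.165) and without either control of batches 1 and 2 or either knockout library (0.103 to 0.282). H4C14 and H4C15 have transcripts of identical sequence, so that their reads could be split arbitrarily, and the calls of H4C14 are uncertain for that reason.

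**Figure D3:**
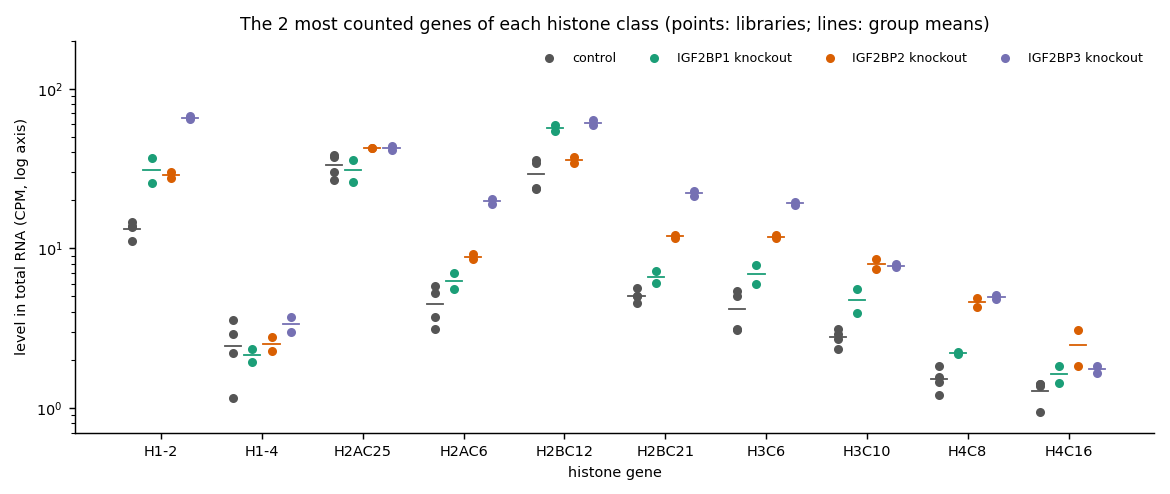
Level in total RNA (CPM, log axis) of the 2 most counted members of each class (horizontal axis) in each library, coloured by genotype, with a line at each group mean. H1-2, H2AC6, H2BC21 and H3C6 are highest in the IGF2BP3 knockout (64.2 and 67.2 CPM for H1-2), the IGF2BP1 and IGF2BP3 knockouts overlap for H2BC12, and H1-4 overlaps between groups.

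The IGF2BP3 and IGF2BP2 knockouts share their batches and could be compared directly. In total RNA 11 of 35 tested members were higher in the IGF2BP3 knockout and none lower, against 21.8% and 21.5% of all genes. In nuclear RNA 11 of 34 were higher and 1 lower, against 24.1% and 24.1%. In cytoplasmic RNA 13 of 36 were higher and 3 lower, against 31.3% and 31.5%. The counts called higher in these 2 compartments thus lie not far above the shares of all genes. Of the 11 in total RNA, 7 encode H2B, as do 13 of the 35 tested. H1-2 was higher by 1.16 ± 0.12, H2AC6 by 1.12 ± 0.13 and H2BC5 by 1.09 ± 0.15 on the log2 scale, while H2AC25, at -0.03 ± 0.13, and H3C10, at -0.07 ± 0.16, were not called. Without replicate 2 of the IGF2BP2 knockout 7 members were higher in total RNA. With no batch term 2 members were higher in cytoplasmic RNA, where the fit then takes in the batch 5 libraries.

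Those batch 5 libraries have no control in their batch. They reach the fitted changes of the IGF2BP3 knockout only through the filter on low counts, the normalization and the estimate of spread. For 31 of the 36 members tested in cytoplasmic RNA both batch 5 libraries lay below both libraries of batches 3 and 4. For 22 of 36 both lay above all 4 control libraries. The shares of all genes with such an order were not counted, so these counts are not shown to be particular to the members. H1-2 was at 98.8 and 96.3 CPM in batches 3 and 4 and at 33.3 and 33.8 CPM in batch 5, where the control was at 12.9 to 15.4 CPM. H2AC25 was at 54.6 and 53.6 CPM in the former and at 30.2 and 29.4 CPM in the latter, inside the range of the control. Levels in this knockout thus differed between batches, and with no control in batch 5 the batch cannot be told apart from the knockout there. Leaving batch 5 out of the fit, 27 of 35 tested members rose in the IGF2BP3 knockout and none fell.

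**Figure D4:**
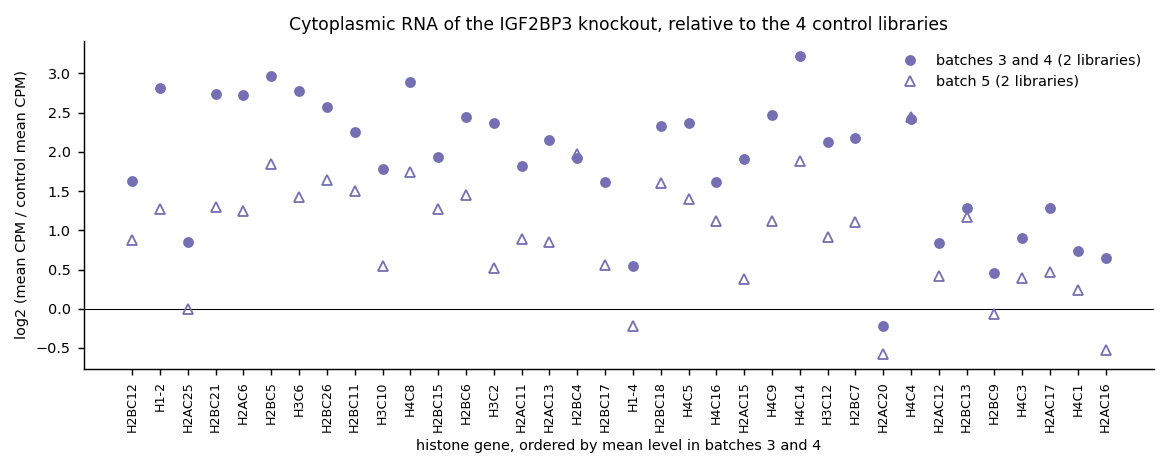
log2 of the mean CPM of the cytoplasmic IGF2BP3 knockout over the mean of the 4 control libraries (vertical axis) for the 36 members tested in cytoplasmic RNA (horizontal axis), in batches 3 and 4 (filled circles) and in batch 5 (open triangles). The triangles lie below the circles for most members, and for H2AC25 the triangle lies near 0.

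The distribution between compartments was compared next. In the control, 21 members passed the filter in a fit of nuclear against cytoplasmic RNA, and 1 was called higher and 3 lower in the nucleus, against 32.6% and 33.3% of all 16246 genes tested. H3C10 was lower in the nucleus by 0.65 (log2, SE 0.17, adjusted p 0.00149), H2BC12 by 0.49 (SE 0.08, adjusted p 1.18e-05) and H2AC6 by 0.39 (SE 0.15, adjusted p 0.0273). H2AC25 was higher there by 0.17 ± 0.07 (adjusted p 0.0336). The calls of H2AC6 and H2AC25 were lost with DESeq2, at adjusted p of 0.127 and 0.078, and with no batch term, at 0.0964 and 0.161. Without cytoplasmic control replicate 2 they were 0.134 and 0.0522, and without nuclear or cytoplasmic control replicate 3 both calls were lost too.

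The nuclear to cytoplasmic ratio was called changed for 3 members, 1 in each knockout. The members' median changes were 0.01, -0.41 and -0.28 (log2) in the IGF2BP1, IGF2BP2 and IGF2BP3 knockouts. Those of all genes were 0.01, 0.03 and -0.03. Of 37 tested members 21, 12 and 12 had a positive change. Under the alternatives the members' medians ranged from -0.03 to 0.27, from -0.54 to -0.09 and from -0.435 to 0.02. In the IGF2BP1 knockout the ratio of H2AC25 rose by 0.43 ± 0.13 (adjusted p 0.0415) and none fell, against 2.36% and 1.76% of all 19310 genes. In the IGF2BP2 knockout the ratio of H4C16 fell by 1.90 (SE 0.56, adjusted p 0.00961) and none rose, against 9.71% and 7.77% of all genes called lower and higher. In the IGF2BP3 knockout the ratio of H3C6 fell by 0.73 (SE 0.24, adjusted p 0.0294) and none rose, against 6.8% and 4.07%. Each of these calls was lost when single libraries were left out. For H2AC25 the adjusted p was 0.0985 without nuclear replicate 1 of the IGF2BP1 knockout and 0.714 without cytoplasmic replicate 2, and leaving out any 1 of the 8 control libraries ended the call. For H4C16 it was 0.275 without cytoplasmic control replicate 3, 0.274 without nuclear control replicate 3, and 0.0568 to 0.125 without any 1 library of the IGF2BP2 knockout. For H3C6 it was 0.594 without cytoplasmic control replicate 3, and the call was also lost without any other control library of batches 3 and 4 or any knockout library of those batches. DESeq2 gave H3C6 an adjusted p of 0.279 and gave none for H2AC25 and H4C16. The remaining 36 of 37 tested members were not called in each knockout, which does not show that their ratios were equal. For H1-2 the change of the ratio was 0.18 ± 0.14, 0.20 ± 0.14 and 0.04 ± 0.14.

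The genes that act on histone mRNA were taken as lists and are given in total RNA by their counts, where 10.7%, 23.3% and 23.5% of all genes rose in the 3 knockouts and 13.5%, 23.7% and 23.4% fell; several of the counts below lie near these shares. SLBP, the stem-loop binding protein, fell by 0.59 in total RNA of the IGF2BP2 knockout and 0.41 in that of the IGF2BP3 knockout on the log2 scale (adjusted p 0.00024 and 0.00299). Its level was 93.8 to 113.8 CPM in the control and 80.9 and 84.0 CPM in the former, while the latter, at 92.1 and 98.4 CPM, overlapped the control. Its value in the IGF2BP1 knockout was 0.10 ± 0.09, or 0.15 without the shared library, and not called in either case. In nuclear RNA SLBP was called in none of the 3, at -0.02 ± 0.09, -0.07 ± 0.09 and -0.03 ± 0.09. In cytoplasmic RNA it fell by 0.20, 0.49 and 0.33 (adjusted p 0.00025, 1.51e-11 and 5.92e-08). Of 15 genes of histone pre-mRNA processing and transcription, none rose and 1 fell in the IGF2BP1 knockout, 3 rose and 10 fell in the IGF2BP2 knockout, and 2 rose and 6 fell in the IGF2BP3 knockout. The medians of the list were -0.01, -0.32 and -0.22 on the log2 scale. MIF4GD, which binds SLBP, rose by 0.72 and 1.10 in the last 2, and NPAT, a coactivator of histone gene transcription, fell by 0.74 in the IGF2BP2 knockout. Of 9 genes of histone mRNA decay, 1 rose and 2 fell, 1 rose and 1 fell, and none rose and 3 fell. ERI1, an exonuclease that trims the stem-loop end, fell by 0.50 in the IGF2BP3 knockout. Of 13 genes of the poly(A) machinery, 1 rose and 1 fell, 1 rose and 10 fell, and none rose and 8 fell.

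More genes of S phase fell than rose in total RNA when IGF2BP2 or IGF2BP3 was knocked out, and in nuclear RNA of the former 6 rose and 7 fell. Of 22 S phase and DNA replication genes, 4 rose and 1 fell in the IGF2BP1 knockout, 3 rose and 10 fell in the IGF2BP2 knockout, and 2 rose and 13 fell in the IGF2BP3 knockout, and the middle gene of the list was at 0.09, -0.18 and -0.37. MCM6, a subunit of the replicative helicase, fell by 1.03 and MCM7 by 0.73 in the IGF2BP3 knockout. In the IGF2BP2 knockout RRM1, a subunit of ribonucleotide reductase, fell by 0.75, while E2F2 rose by 0.845. In the IGF2BP1 knockout, shared library included, CCNE2 rose by 0.939 and MCM6 by 0.335, and CDT1 fell by 0.528. Of 12 genes of G2 and mitosis, 2 rose and 2 fell, none rose and 8 fell, and 1 rose and 4 fell. Of 12 histone chaperones, 3 rose and 2 fell, none rose and 5 fell, and 1 rose and 8 fell. Without the shared library, the lists from pre-mRNA processing to chaperones had 0, 1, 2, 4, 1 and 2 genes higher and 2, 1, 3, 1, 2 and 1 lower in the IGF2BP1 knockout, in the order given here. Their part in the histone results was not tested.

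The replication-independent histones, whose mRNAs mostly carry a poly(A) tail, were counted in the same way. Of 11 tested in total RNA of 12 listed, 4 rose and 1 fell in the IGF2BP1 knockout. In the IGF2BP2 knockout 1 rose and 1 fell, and in the IGF2BP3 knockout 4 rose and 1 fell. The medians were 0.22, 0.03 and -0.04. Of the replication-dependent members 10, 20 and 24 of 35 rose there. A smaller share of the list thus rose in the last 2 knockouts, but not in the IGF2BP1 knockout, and these differences were not tested. Without the shared library 5 rose and 1 fell in the IGF2BP1 knockout. In nuclear RNA, of 12 tested, 7 rose and 1 fell in the IGF2BP2 and 4 rose and 1 fell in the IGF2BP3 knockout. The share of all genes called higher was 24.8% and 25.1%, and of the replication-dependent members 18 and 22 of 34 rose. In cytoplasmic RNA 4 rose and 2 fell, and 7 rose and 2 fell, against 30.9% and 31.5% called higher. Of the replication-dependent members 27 of 36 rose in each of these. In the IGF2BP1 knockout 5 rose and none fell in nuclear RNA, shared library included, against 12.7% and 13.0% of all genes. In its cytoplasmic RNA 4 rose and 4 fell, against 22.5% and 21.9%. H2AJ, which encodes an H2A variant, rose by 1.13 in total RNA of the IGF2BP3 knockout. H3-3A, a gene for the replacement histone H3.3, fell by 0.70 in total RNA of the IGF2BP2 knockout. Of 20 other RNAs that lack a poly(A) tail, 3 passed the filter in total RNA, and RMRP, the RNA of a nuclear endoribonuclease, fell by 1.56 and 1.18 in the IGF2BP2 and IGF2BP3 knockouts. The summed level of these 20 was 13.3 to 40.7 CPM in the control and 21.7 to 23.0 CPM in the IGF2BP3 knockout in total RNA. In cytoplasmic RNA it was 8.61 to 12.6 CPM in the control, 19.7 to 24.7 CPM in the IGF2BP2 and 9.57 to 20.6 CPM in the IGF2BP3 knockout, and its part in the histone results was not tested.

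**Figure D5:**
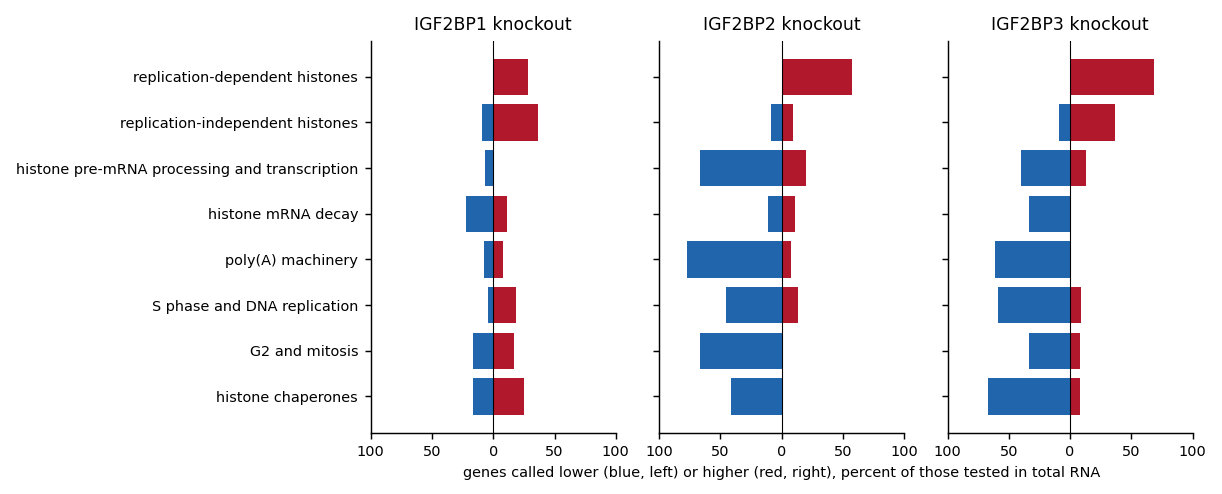
Share of tested genes called lower (blue, left) and higher (red, right) in total RNA, in percent of those tested (horizontal axis), for the replication-dependent histones and 7 lists of related genes (vertical axis) in each knockout. The histone members are called higher alone (10, 20 and 24 of 35), while the S phase list has 10 and 13 of 22 genes called lower and 3 and 2 called higher in the IGF2BP2 and IGF2BP3 knockouts.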

How the data were processed

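Deposited whole-number read counts per gene were used for every comparison. Per the labels' protocols, libraries were stranded, poly(A)-selected and sequenced as pairs. The submitters' processing notes name STAR, featureCounts, DESeq2 1.44.0 and GRCh38; whether counting used strand is not given in the sources used here. The deposited FPKM values were only checked: for 99.991% of 11666 genes they fit a length equal to the whole gene span within 1%, and 64 of the 68 members are in those tables. Counts were fitted with edgeR 4.0.16 (R 4.3.3; TMM normalization, filterByExpr by group, quasi-likelihood test, Benjamini-Hochberg adjustment over all genes tested), with all libraries of a kind in 1 fit and terms for genotype and batch. The ratio was tested as an interaction of genotype and compartment. Batch, as the labels give it, pairs each knockout library with a control library; deviations of same-batch libraries from their group means correlated at -0.199 to 0.0275. Identifiers without a symbol held 0.349% to 0.713% of counts. There were 0 columns of other samples. A count of 0 allows up to 3 reads, or 0.115 to 0.219 CPM. The script was tested on simulated data. Genes were named by rule: the 2 most counted of each class, the largest changes called in all 3 kinds, those with changed ratios, and from each list up to 3 with the smallest adjusted p. The members, lists and rules were chosen with earlier results of these data known. Alternatives were other normalizations, no filter on low counts, DESeq2 1.42.0, no batch term and leaving out each library. A marker gene and a gene of the listed histones are not reported here.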

Additional observations from a re-analysis of the deposited data

Results flagged for a closer look

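H1-4 in nuclear RNA of the control had 1 library apart from the other 3, at 1.88 CPM. H4C8 in cytoplasmic RNA of the control had 1 library apart, at 0.873 CPM, and H4C16 in total RNA of the control had 1, at 0.939 CPM. These are 3 of 60 groups of 4 libraries looked at, and chance flags about 1 group in 20.

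The change in the nuclear to cytoplasmic ratio was called for H2AC25 in the IGF2BP1 knockout, at 0.43 (log2), for H4C16 in the IGF2BP2 knockout, at -1.90, and for H3C6 in the IGF2BP3 knockout, at -0.73, by the test of the interaction itself.

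The 2 cytoplasmic libraries of the IGF2BP3 knockout in batch 5 give no fold change of their own, as their batch holds no control, yet the summed level of the members was 222.0 CPM in replicate 3 and 210.8 CPM in replicate 4, above the highest control library at 126 CPM.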

How the results depend on the processing

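The counts of members called higher in the IGF2BP2 and IGF2BP3 knockouts against control stayed within 1.5 times under every alternative, except for 13 against 20 in total RNA without replicate 2 of the IGF2BP2 knockout. DESeq2 called 4, 8 and 9 members higher in total, nuclear and cytoplasmic RNA of the IGF2BP1 knockout. Without a batch term (no replicate block), cytoplasmic RNA of the IGF2BP1 knockout had 7 called higher and 0 lower, the IGF2BP3 against IGF2BP2 comparison 2 higher, the ratio 0 higher for IGF2BP1 and 3 lower for IGF2BP2, and the control compartments 0 higher. With no filter on low counts, 1 member was lower in total RNA of the IGF2BP1 knockout. In the cytoplasmic comparison of IGF2BP3 with IGF2BP2, 1 was lower with upper quartile normalization, no filter or DESeq2. The ratio call of the IGF2BP1 knockout became 0 with RLE size factors, upper quartile normalization, no filter and DESeq2, that of IGF2BP2 became 0 with DESeq2 (which gave no adjusted p for the gene in these 2 cases), and that of IGF2BP3 became 0 with no filter and DESeq2. In the control compartments 2 were higher with RLE or upper quartile normalization and 0 with no filter or DESeq2. Because same-batch deviations correlated below -0.1 in total and nuclear RNA, batches were also exchanged, chosen after seeing the data: with batches 3 and 4 exchanged, 10, 20 and 24 members were higher in total RNA of the 3 knockouts and 1 was lower for IGF2BP1, and with batches 1 and 2 exchanged 13, 18 and 22 were higher in nuclear RNA.

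Leaving out each library in turn, members called higher ranged from 7 to 8, 13 to 20 and 17 to 26 in total RNA of the IGF2BP1, IGF2BP2 and IGF2BP3 knockouts, and those lower from 0 to 1 for IGF2BP1. For IGF2BP3 against IGF2BP2 the range was 7 to 15 higher and 0 to 1 lower in total, 0 to 1 lower in nuclear, and 1 to 3 lower in cytoplasmic RNA. Cytoplasmic RNA of the IGF2BP1 knockout had 0 to 1 lower. Ratio calls ranged from 0 to 1 in each knockout, in the IGF2BP2 knockout in both directions, and the control compartments had 0 to 2 higher. Upper quartile normalization shifted the median of all genes by 0.12 and 0.15 in total and 0.16 and 0.19 in cytoplasmic RNA (IGF2BP2, then IGF2BP3), and the members' medians there were 1.19, 1.55, 1.48 and 1.82. Of 4008 values of the 14 named members under alternatives, 163 lost and 34 gained a call and 0 reversed. The cause was not tested. The shared library is in no cytoplasmic group, so leaving it out there was void. The part of depth in the calls was not tested.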
